A study of Arabidopsis thaliana with 12 samples.

Results

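The 8 genes described here encode the repressors of light signalling COP1, SPA1, SPA2, SPA3, SPA4, DET1, RUP1 and RUP2. They were chosen by locus identifier, not by any measured value, from the 32399 genes of an RNA sequencing table of Arabidopsis thaliana seedlings. All 8 were among the 21870 genes that passed the filter on low counts. The study has 12 libraries in 4 groups of 3: the line labelled rve5-2 at 29 °C, the same line at 22 °C, wild type (WT) at 29 °C and WT at 22 °C. The question named in the study title is what RVE5 and CCA1 do in warm-induced hypocotyl growth. The label rve5-2 names 1 mutant allele of RVE5 (REVEILLE 5), a Myb-like transcription factor of the CCA1 family. Whole seedlings 5 days old, raised at 22 °C in long days of 16 h light and 8 h dark, were kept at 29 or 22 °C for 12 h and sampled at zeitgeber time 12 h. A treatment text shared by all libraries names 29 °C, so the temperature of each was read from its own label. The labels do not say whether replicates were separate plantings, so each p-value rests on a spread between libraries that may be technical. Since whole seedlings were used, fewer cells of a type and less RNA per cell cannot be told apart.

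COP1 is a RING-type E3 ubiquitin ligase that works in complexes with the SPA proteins and marks light-signalling factors such as HY5 for degradation. DET1 acts in a complex with COP10 and DDB1 and, like COP1, holds back seedling photomorphogenesis, and it also takes part in warm-induced hypocotyl growth. RUP1 and RUP2 are WD40-repeat proteins that return the UV-B receptor UVR8 to its inactive dimer, and both genes are induced through UVR8, COP1 and HY5.

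RUP1 (AT5G52250, chromosome 5, 21216855 to 21218226, plus strand) and RUP2 (AT5G23730, chromosome 5, 8005234 to 8006630, plus strand) have a single exon each. DET1 (AT4G10180) lies on chromosome 4 from 6346463 to 6349276 on the plus strand and has 10 exons. COP1 (AT2G32950) lies on chromosome 2 from 13977933 to 13983535 on the plus strand and has 13 exons. SPA1 (AT2G46340, chromosome 2, 19022173 to 19027413, minus strand) and SPA2 (AT4G11110, chromosome 4, 6771605 to 6777225, plus strand) have 8 exons each. SPA3 (AT3G15354) lies on chromosome 3 from 5169095 to 5172837 on the minus strand, and SPA4 (AT1G53090) on chromosome 1 from 19783352 to 19786902 on the plus strand. Positions are those of the deposited table (TAIR10), and exon numbers are from the RefSeq annotation. The library kit does not mark strand, and 135 bases of SPA3 and 3 bases of SPA4 overlap a gene on the opposite strand, AT3G15350 and AT1G53100, whose reads there cannot be told apart. Coding sequences were 69.3% identical between RUP1 and RUP2, 81.1% between SPA3 and SPA4 and 60.6% between SPA1 and SPA2. No exonic stretch of 50 bases of the 8 genes occurred elsewhere in the reference genome.

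The sequences upstream of the 4 genes on which the results turn are given here, as the 250 bases before the RefSeq start on the strand of the gene, from the RefSeq TAIR10.1 genome. Capitals mark ACGT, the core of sites bound by plant bZIP factors, and AAAAATCT, a binding site of CCA1. None of the 4 windows contains another gene. The windows are chr5:21216522-21216771 on the plus strand for RUP1, chr5:8004847-8005096 on the plus strand for RUP2, chr4:6346161-6346410 on the plus strand for DET1 and chr2:19027529-19027778 on the minus strand for SPA1.
RUP1: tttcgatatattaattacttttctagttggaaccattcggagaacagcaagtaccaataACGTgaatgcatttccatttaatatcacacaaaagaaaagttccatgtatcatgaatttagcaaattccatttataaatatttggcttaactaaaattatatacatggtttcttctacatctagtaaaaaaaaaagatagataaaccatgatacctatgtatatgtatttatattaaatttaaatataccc
RUP2: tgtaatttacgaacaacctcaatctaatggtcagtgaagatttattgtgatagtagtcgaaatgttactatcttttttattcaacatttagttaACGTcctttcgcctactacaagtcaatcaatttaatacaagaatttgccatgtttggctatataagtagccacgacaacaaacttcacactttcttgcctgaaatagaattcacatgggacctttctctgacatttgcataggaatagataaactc
DET1: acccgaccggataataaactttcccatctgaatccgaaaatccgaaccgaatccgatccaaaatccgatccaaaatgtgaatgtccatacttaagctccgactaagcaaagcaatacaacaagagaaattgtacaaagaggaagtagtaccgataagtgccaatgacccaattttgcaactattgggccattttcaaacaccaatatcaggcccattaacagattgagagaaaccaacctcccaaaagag
SPA1: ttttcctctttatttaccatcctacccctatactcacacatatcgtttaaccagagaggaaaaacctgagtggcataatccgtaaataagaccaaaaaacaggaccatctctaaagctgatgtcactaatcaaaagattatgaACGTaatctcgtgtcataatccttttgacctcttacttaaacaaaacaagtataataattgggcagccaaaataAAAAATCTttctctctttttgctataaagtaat
RUP1 has an ACGT core from 191 to 188 bases before its start, and RUP2 has one from 156 to 153 bases before its start. SPA1 has an ACGT core from 107 to 104 bases and a CCA1-binding site from 33 to 26 bases before its start. The window of DET1 has neither. Of the other 4 genes, COP1, SPA2 and SPA3 hold the ACGT core and SPA4 does not. On both strands, the G-box CACGTG, which contains ACGT, and the evening element AAAATATCT were in none of the 8 windows. Among windows of 27443 genes, 44.1% hold ACGT, 6.69% AAAAATCT, 6.49% the G-box and 2.36% the evening element. The ACGT core was added to the search after the sequences had been seen.

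Total counts were 65.9 to 89.1 M per library, which stand for about 17.7 to 23.9 M fragments because low counts are spaced by about 3.72. Levels are CPM, counts scaled to one library total with TMM factors, and changes are log2 fold changes from edgeR's quasi-likelihood test. A gene was called at a Benjamini-Hochberg adjusted p under 0.05 over all genes tested. RVE5 goes against the label, at 1329 ± 85.6 CPM in libraries carrying the rve5-2 label at 29 °C, against 15.1 ± 1.66 CPM in WT, and at 1011 ± 68.1 CPM in those at 22 °C, against 14.9 ± 0.757 CPM in WT (SD, n = 3 each). Genotype comparisons are therefore between libraries labelled rve5-2, in which RVE5 was high, and WT libraries. The summed level of 18 root marker genes was 25.7, 30.1 and 59.2 CPM in the libraries labelled rve5-2 at 29 °C, against 161, 174 and 272 CPM in those at 22 °C. In WT it was 7.79, 50.7 and 56.8 CPM at 29 °C, against 135, 95.6 and 200.5 CPM at 22 °C. Root marker levels therefore did not overlap between temperatures in either genotype, and temperature and root RNA cannot be told apart in these groups. Of the 18 markers, CASP5 was at 0 in replicates 1 and 3 of WT at 29 °C and replicate 2 of the libraries labelled rve5-2 at 29 °C, and RHS18 and EXPA18 in replicate 1 of WT at 29 °C. The defining root markers WOX5, PLT1 and PLT2 had counts in every library, and 7 green shoot markers also did.

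Levels of the 8 genes were compared with each other on FPKM (fragments per kilobase of transcript, scaled to the library total), as the authors deposited it. DET1 was highest in all 4 groups, at 23.1 ± 0.412 FPKM in the libraries labelled rve5-2 at 29 °C, 21.7 ± 0.490 FPKM in those at 22 °C, 24.3 ± 1.63 FPKM in WT at 29 °C and 20.9 ± 0.752 FPKM in WT at 22 °C (SD, n = 3 each). Its libraries lay above those of the next gene in each group. COP1, SPA1 and SPA3 took the next places, at group means of 13.2 to 17.8 FPKM, and their order differed between groups. SPA2 came next (7.78 to 8.75 FPKM) followed by SPA4 (5.00 to 5.74 FPKM), each apart from its neighbour above in every group. RUP2 (3.0 to 5.21 FPKM) stood below them and RUP1 was lowest (1.16 to 3.77 FPKM). At 22 °C the ranges of RUP2 overlapped those of SPA4 above it and of RUP1 below it in both genotypes, and at 29 °C neither overlap was seen.

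**Figure D1:**
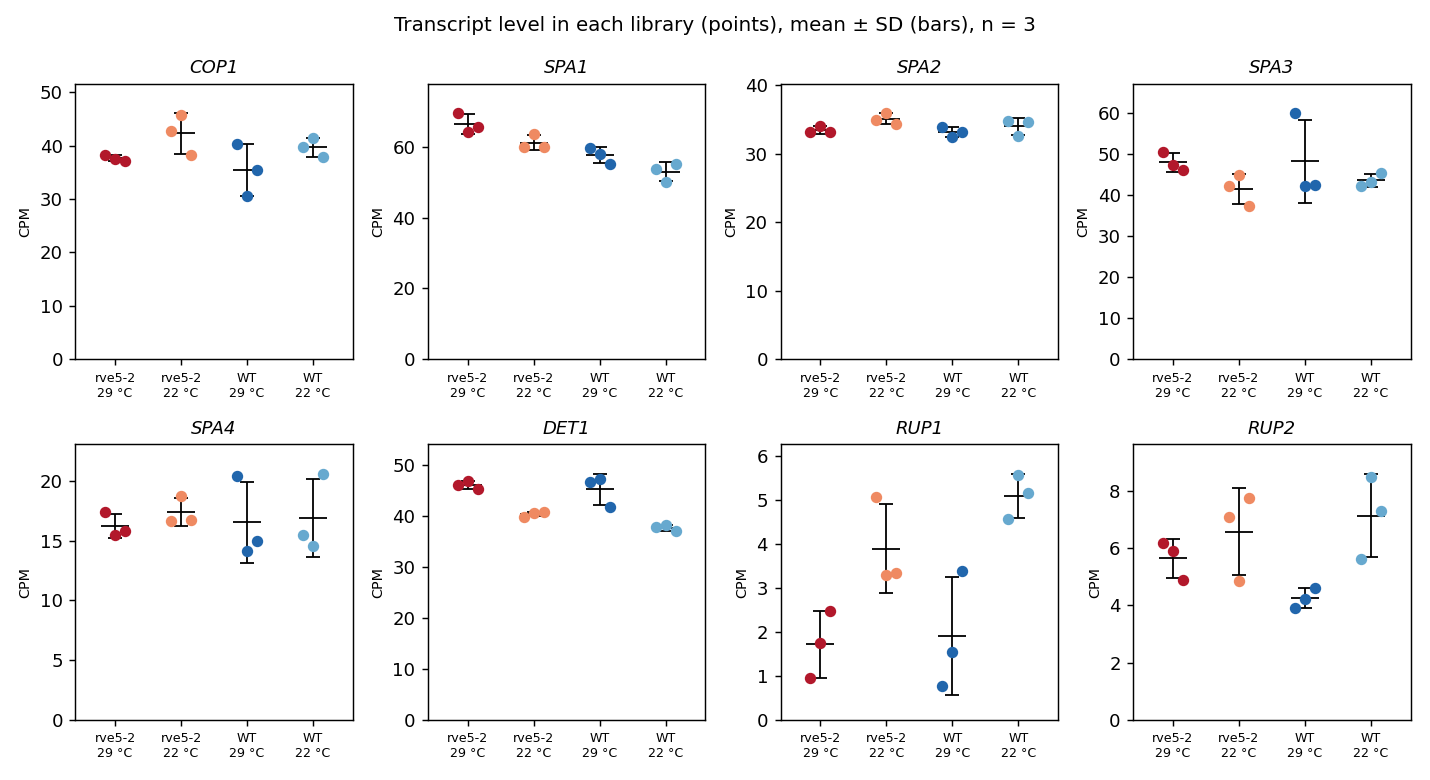
Level of each gene (CPM, linear axis from 0) in each library, 1 point per library, with the mean and SD of 3 libraries. RUP1 was lower at 29 °C than at 22 °C and DET1 higher in both genotypes, and SPA1 was higher in the libraries labelled rve5-2 at both temperatures. In edgeR with all libraries and no replicate block, those of DET1 were called, and those of RUP1 and SPA1 were not. SPA2 stayed between 32.4 and 35.9 CPM in all 12 libraries.

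The 2 UV-B feedback genes had the widest range among the 8. The highest library was 7.19 times the lowest for RUP1 and 2.18 times for RUP2, against 1.11 times for SPA2 and at most 1.60 times for the others. Both RUP genes had lower means at 29 °C than at 22 °C in both genotypes. The main fit was edgeR on the counts as deposited, with all 12 libraries and no replicate block. In it RUP2 fell in WT, while the differences of RUP1 were larger in size and did not pass within either genotype. Whether RUP1 passed within a genotype depended on the processing.

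In the warm comparison 1 of the 8 genes was called lower (RUP2) and 1 higher (DET1) in WT, where 15.5% of all genes tested were called, 8.08% higher and 7.41% lower. In the libraries labelled rve5-2, 1 gene was called higher (DET1) and 0 lower, where 26.0% of all genes were called, 13.0% in each direction. Read against these backgrounds, neither count is particular to the 8 genes. The median log2 fold change of the 8 genes was -0.08 in the libraries labelled rve5-2 and -0.03 in WT, where that of all genes tested lay within 0.01 of 0.

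RUP1 had 0.944, 1.75 and 2.47 CPM in the libraries labelled rve5-2 at 29 °C, against 5.05, 3.29 and 3.33 CPM in those at 22 °C. In WT it had 0.773, 1.55 and 3.39 CPM at 29 °C, against 4.57, 5.56 and 5.14 CPM at 22 °C. All warm libraries lay below all 22 °C libraries of their genotype, and the spread at 29 °C was wide. The log2 fold change was -1.18 (SE 0.46, 95% interval -2.18 to -0.17, adjusted p = 0.0797) in the libraries labelled rve5-2 and -1.42 (SE 0.46, interval -2.42 to -0.42, adjusted p = 0.0565) in WT. Neither passed in the main fit. With a replicate block in edgeR both passed, at an adjusted p of 0.046 in the libraries labelled rve5-2 and 0.0327 in WT. Averaged over both genotypes, a contrast added after the data had been seen, RUP1 fell, with a log2 fold change of -1.298 (SE 0.33, edgeR adjusted p = 0.00804), or 2.46-fold. In that contrast 3 of the 8 genes were called, RUP1 and RUP2 lower and DET1 higher, where 38.6% of all genes were, 19.1% higher and 19.5% lower. RUP1 is thinly covered: the lowest library, replicate 1 of WT at 29 °C, had 65 counts, which stand for about 17 fragments (exact Poisson interval 9.9 to 27.2, counting error only). Without replicate 3 of WT at 29 °C, the highest warm library, the WT change was -2.13 (edgeR adjusted p = 0.00799) and passed. In DESeq2 it passed in both genotypes, at an adjusted p of 0.0368 in the libraries labelled rve5-2 and 0.0138 in WT. In the libraries labelled rve5-2 it also passed without replicate 1 or 3 of WT at 29 °C (edgeR adjusted p = 0.0235 and 0.0314), and in WT without replicate 1 of the libraries labelled rve5-2 at 29 °C (0.0474). RUP1 was called in 6 of 21 alternatives in the libraries labelled rve5-2 and in 7 of 21 in WT, and the others did not call it.

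RUP2 had 6.18, 5.90 and 4.88 CPM in the libraries labelled rve5-2 at 29 °C, against 7.10, 4.86 and 7.75 CPM in those at 22 °C, and these ranges overlapped. In WT it had 3.90, 4.23 and 4.60 CPM at 29 °C, against 5.61, 8.50 and 7.31 CPM at 22 °C. The WT libraries at 29 °C all lay below those at 22 °C. RUP2 fell in WT by 0.75 on the log2 scale (SE 0.20, edgeR adjusted p = 0.0279), a 1.68-fold difference. In the libraries labelled rve5-2 its log2 fold change was -0.22 (SE 0.20, interval -0.66 to 0.22, edgeR adjusted p = 0.467). The difference between these warm responses was 0.53 (SE 0.29, interval -0.09 to 1.16, edgeR adjusted p = 0.981) and did not pass. Over both genotypes RUP2 fell by 0.48 (SE 0.14, edgeR adjusted p = 0.0189). The WT call ended without replicate 2 or 3 of WT at 22 °C or replicate 1 or 2 of WT at 29 °C (edgeR adjusted p = 0.101, 0.0812, 0.071 and 0.066), and the call over both genotypes without replicate 1 or 3 of the libraries labelled rve5-2 at 22 °C (0.0505 and 0.0511).

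The ratio of RUP1 to RUP2 on FPKM, chosen after the values had been seen, was 0.154, 0.300 and 0.514 in the libraries labelled rve5-2 at 29 °C, against 0.725, 0.689 and 0.437 in those at 22 °C. In WT it was 0.201, 0.372 and 0.749 at 29 °C, against 0.827, 0.664 and 0.716 at 22 °C. The ranges overlapped between temperatures in both genotypes.

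Levels of RUP1 were set beside those of the root markers. At 29 °C the 3 libraries of each genotype stood in the same order by RUP1 as by summed root markers, and at 22 °C they did not. By a root score, the average of the 18 markers on the log2 CPM scale, the order differed from that of RUP1 at 29 °C too. The scores of replicates 1, 2 and 3 were -0.24, -0.98 and 0.58 in the libraries labelled rve5-2 and -2.26, 0.76 and 0.06 in WT. The named genes most like RUP1 across the 12 libraries were RHD2, a root hair NADPH oxidase (Pearson r of log2 CPM 0.965), and the glutathione transferase gene GSTU22 (0.961), among 2246 genes compared, and these libraries share the warm contrast and the root marker gradient. At 22 °C the scores were 2.26 to 2.5 in the libraries labelled rve5-2 and 1.8 to 2.83 in WT, above all those at 29 °C. A fit with this covariate therefore cannot separate temperature from root RNA. Over both genotypes it called 405 of all genes, against 8445 without the score. With the root score as a covariate, the change of RUP1 over both genotypes was -0.24 (edgeR adjusted p = 0.897). That of RUP2 was -0.46 (adjusted p = 0.506), near its value without the score. The change of COP1 over both genotypes was larger under this covariate, at -0.44 (adjusted p = 0.0619), that of SPA4 was -0.32 (adjusted p = 0.506, against -0.06 without the score) and that of SPA3 turned to -0.20 (adjusted p = 0.503). None of the 8 genes was then called in any comparison, and 85 of all genes were called in WT and 540 in the libraries labelled rve5-2.

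**Figure D2:**
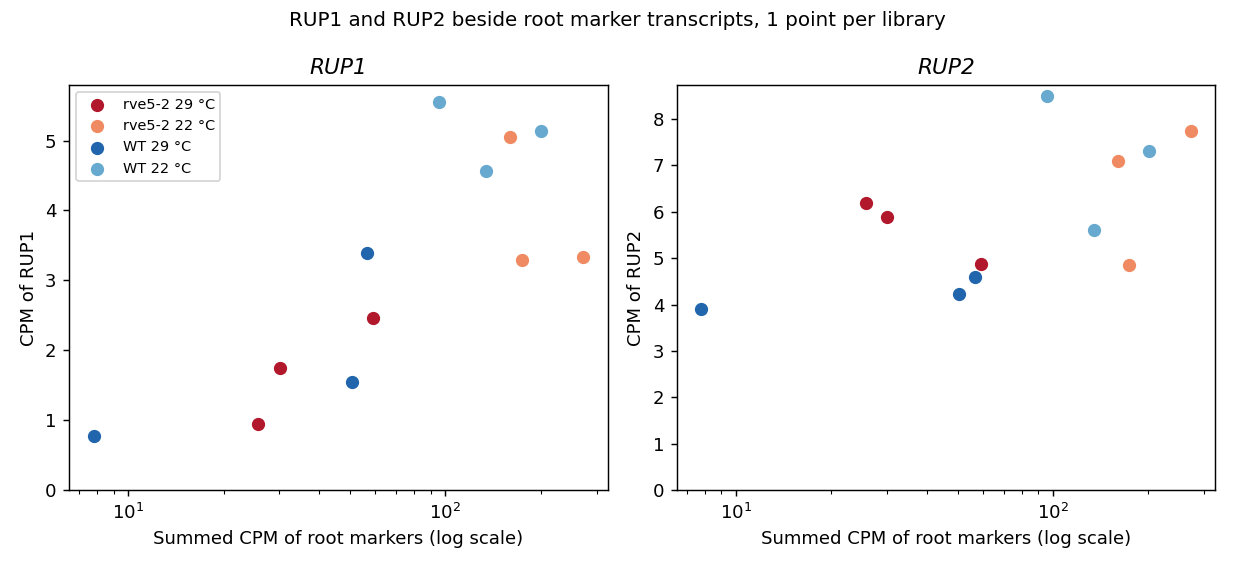
Level of RUP1 (left) and RUP2 (right) in CPM against the summed CPM of 18 root markers (log scale), 1 point per library, coloured by group. Warm libraries lie to the left, at 7.79 to 59.2 CPM of root markers, and RUP1 was lowest where the root markers were lowest, while RUP2 did not follow that order in the libraries labelled rve5-2 at 29 °C.

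DET1 was higher at 29 °C in both genotypes. It had 46.3, 46.9 and 45.4 CPM in the libraries labelled rve5-2 at 29 °C, against 39.9, 40.6 and 40.8 CPM in those at 22 °C. In WT it had 46.8, 47.3 and 41.8 CPM at 29 °C, against 37.9, 38.3 and 37.2 CPM at 22 °C. The 6 warm libraries all lay above the 6 libraries at 22 °C, and the rise was small. DET1 rose by 0.19 on the log2 scale (SE 0.06, edgeR adjusted p = 0.0404), or 1.14-fold, in the libraries labelled rve5-2 and by 0.26 (SE 0.06, edgeR adjusted p = 0.0156), or 1.199-fold, in WT. The difference between these responses was -0.07 (SE 0.09, interval -0.26 to 0.12). Over both genotypes the rise was 0.23 (SE 0.04, edgeR adjusted p = 0.00176), and it was called in 19 of 20 alternatives, the exception being the root score (0.18, adjusted p = 0.368). The call in WT ended without replicate 3 of WT at 22 °C (edgeR adjusted p = 0.0601) and without replicate 2 of WT at 29 °C (0.0518). The call in the libraries labelled rve5-2 ended without any 1 of their 6 libraries or replicate 1 or 3 of WT at 22 °C, at edgeR adjusted p of 0.0549 to 0.115, and in limma on log2(FPKM + 1) (0.09, adjusted p = 0.333).

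COP1 and its SPA partners were not called in the warm comparison of either genotype. COP1 had 38.2, 37.5 and 37.1 CPM in the libraries labelled rve5-2 at 29 °C, against 42.8, 45.8 and 38.3 CPM in those at 22 °C. In WT it had 40.2, 30.6 and 35.4 CPM at 29 °C, against 39.7, 41.4 and 37.9 CPM at 22 °C. The ranges were apart in the libraries labelled rve5-2 and overlapped in WT. The log2 fold change was -0.17 (SE 0.10, edgeR adjusted p = 0.217) in the libraries labelled rve5-2, -0.16 (SE 0.10, edgeR adjusted p = 0.267) in WT and -0.17 (SE 0.07, edgeR adjusted p = 0.0707) over both. On FPKM the libraries did not overlap in either genotype, at 14.7 to 14.9 FPKM for rve5-2 at 29 °C, against 16.3 to 19.3 FPKM at 22 °C, and 13.3 to 15.8 FPKM for WT at 29 °C, against 16.2 to 18.4 FPKM at 22 °C. The share of all genes apart on FPKM was not counted, so these ranges have no background. In limma on log2(FPKM + 1), 3923 genes fell and 1949 rose in the libraries labelled rve5-2, and 2110 fell and 1469 rose in WT. In limma on log2(FPKM + 1) COP1 fell by 0.25 (adjusted p = 0.0492) in the libraries labelled rve5-2 and by 0.23 (adjusted p = 0.0116) over both genotypes. On that scale the median of all genes was -0.08 in the libraries labelled rve5-2 and -0.05 over both genotypes. In edgeR over both genotypes it passed without replicate 1 of WT at 29 °C (-0.22, adjusted p = 0.0141) and without replicate 3 of the libraries labelled rve5-2 at 22 °C (-0.20, adjusted p = 0.0437). With the root score as a covariate it was at -0.43 in the libraries labelled rve5-2 (edgeR adjusted p = 0.0795) and -0.45 in WT (0.167).

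The SPA genes, whose products are kinase-like partners of COP1, differed little between temperatures. SPA1 was 0.12 higher at 29 °C on the log2 scale in both genotypes (SE 0.06 each, edgeR adjusted p = 0.19 in the libraries labelled rve5-2 and 0.215 in WT). SPA2 had the smallest spread of the 8, with a coefficient of variation of 1.7 to 3.7% within groups, and its log2 fold changes were -0.07 and -0.04 (SE 0.06 each), with intervals from -0.20 to 0.06 in the libraries labelled rve5-2 and from -0.17 to 0.09 in WT. SPA3 averaged 48.1 ± 2.30 CPM in the libraries labelled rve5-2 at 29 °C, against 41.6 ± 3.75 CPM in those at 22 °C, and 48.3 ± 10.2 CPM in WT at 29 °C, against 43.7 ± 1.51 CPM in WT at 22 °C (SD, n = 3 each). The wide spread in WT at 29 °C came from replicate 1, with 60.1 CPM beside 42.2 and 42.5 CPM, and without it the log2 fold change in the libraries labelled rve5-2 (0.21) had an edgeR adjusted p of 0.0476, against 0.225 with all libraries. With the root score as a covariate SPA3 was at -0.14 in the libraries labelled rve5-2 and -0.25 in WT (edgeR adjusted p = 0.659 and 0.559), the opposite direction. SPA4 stood at 15.5 to 17.4 CPM in the libraries labelled rve5-2 at 29 °C, 16.7 to 18.7 CPM in those at 22 °C, 14.2 to 20.4 CPM in WT at 29 °C and 14.6 to 20.6 CPM in WT at 22 °C, and these ranges overlapped. Summed over SPA1 to SPA4 and divided by COP1 on FPKM, a ratio chosen after the values had been seen, SPA transcripts were 2.88 to 3.0 times COP1 in the libraries labelled rve5-2 at 29 °C, against 2.38 to 2.58 times in those at 22 °C. In WT the ratio was 2.76 to 3.21 at 29 °C, against 2.28 to 2.77 at 22 °C, and these ranges overlapped.

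Counted by range, 6 of the 8 genes did not overlap between temperatures in the libraries labelled rve5-2 (SPA1, SPA3 and DET1 higher, COP1, SPA2 and RUP1 lower), where 45.6% of all genes did not, 22.3% higher and 23.3% lower. In WT 3 did not overlap (DET1 higher, RUP1 and RUP2 lower), where 36.3% of all genes did not, 18.0% higher and 18.3% lower. DET1 and RUP1 were apart in the same direction in both genotypes, as were 24.3% of all genes, 11.8% higher and 12.5% lower.

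**Figure D3:**
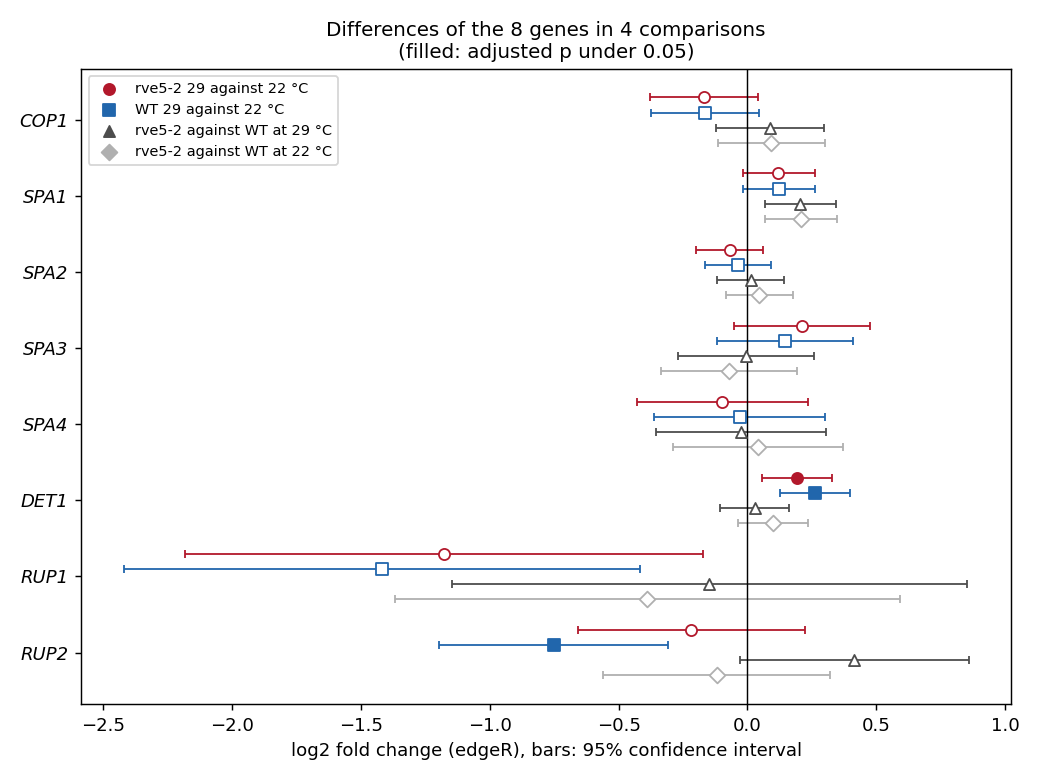
Log2 fold change of each gene (x axis) in 4 comparisons, with 95% confidence intervals from edgeR. Filled symbols passed an adjusted p of 0.05: DET1 in both warm comparisons (0.19 in the libraries labelled rve5-2 and 0.26 in WT) and RUP2 in WT (-0.75).

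Between genotypes 0 of the 8 genes were called at 29 °C, where 0.466% of all genes were called, and 0 at 22 °C, where 0.192% were. Across all genes, an unadjusted p under 0.05 was seen for 8.40% at 29 °C and 6.39% at 22 °C. DESeq2 also called 0 of the 8 at either temperature, with 345 of all genes at 29 °C and 143 at 22 °C. SPA1 was the member with the smallest unadjusted p at both temperatures.

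SPA1 had 69.5, 64.2 and 65.7 CPM in the libraries labelled rve5-2 at 29 °C, against 59.8, 58.0 and 55.2 CPM in WT at 29 °C. At 22 °C it had 60.1, 63.6 and 59.8 CPM in the libraries labelled rve5-2, against 53.7, 49.95 and 55.2 CPM in WT. The genotypes did not overlap at either temperature. The log2 difference was 0.21 at 29 °C (SE 0.06, interval 0.07 to 0.35, unadjusted p = 0.00748, edgeR adjusted p = 0.316) and 0.21 at 22 °C (SE 0.06, interval 0.07 to 0.35, unadjusted p = 0.00702, edgeR adjusted p = 0.552). Averaged over both temperatures, a contrast added after the data had been seen in which 0.686% of all genes were called, it was 0.21 (SE 0.05, edgeR adjusted p = 0.0732). SPA1 was the 1 gene of 8 whose genotypes were apart in the same direction at both temperatures, as for 1.81% of all genes, 1.25% being higher. DESeq2 called SPA1 higher over both temperatures (0.21, adjusted p = 0.00442), as did edgeR without replicate 1 of WT at 29 °C (0.22, adjusted p = 0.0303). It was called in 2 of 20 alternatives. These also called more of all genes, 432 in DESeq2 and 571 without that replicate, against 150. The summed green shoot markers, all 7 of them with counts, were 40880 to 49160 CPM in the libraries labelled rve5-2 at 29 °C, against 32260 to 42560 CPM in WT at 29 °C, and 33680 to 37350 CPM in the libraries labelled rve5-2 at 22 °C, against 30110 to 32660 CPM in WT at 22 °C. Their part in the difference of SPA1 was not tested. The genes most like SPA1 across the 12 libraries were ABA1, the zeaxanthin epoxidase gene (r 0.942), and LHCB3, an antenna gene of photosystem II (r 0.937), over 2245 genes compared.

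At 29 °C the genotypes were apart for 2 of the 8 genes, SPA1 and RUP2, both higher in the libraries labelled rve5-2, where 11.6% of all genes were apart and 6.13% were apart and higher. For RUP2 the log2 difference there was 0.41 (SE 0.20, interval -0.03 to 0.86, edgeR adjusted p = 0.642), and at 22 °C it was -0.12 (SE 0.20, adjusted p = 0.978) with overlapping ranges. At 22 °C the genotypes were apart for SPA1 and DET1, where 14.4% of all genes were and 7.20% were apart and higher. DET1 differed by 0.10 at 22 °C (SE 0.06, edgeR adjusted p = 0.87) and by 0.03 at 29 °C (SE 0.06, adjusted p = 0.974). RUP1 differed by -0.15 at 29 °C and by -0.39 at 22 °C (SE 0.46 and 0.45), with intervals from -1.15 to 0.85 and from -1.37 to 0.59. The data are compatible with RUP1 differences anywhere within these intervals, in either direction. COP1 differed by 0.09 at both temperatures (SE 0.10), and SPA2, SPA3 and SPA4 by -0.07 to 0.05.

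The interaction, which subtracts the WT warm response from that in libraries bearing the rve5-2 label, was called for 0 of the 8 genes and 0 of all genes in edgeR, with 4.89% of all genes at an unadjusted p under 0.05. DESeq2 called 43 of all genes and none of the 8. The largest value among the 8 was that of RUP2 (0.53), followed by RUP1 (0.24, SE 0.64), and those of COP1, SPA1, SPA2, SPA3, SPA4 and DET1 lay between -0.07 and 0.07. For RUP1 the interval was -1.16 to 1.64.

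Across the 12 libraries the member pair with the strongest correlation of log2 CPM was DET1 with RUP1 (r -0.897 overall and -0.721 on deviations from the group means). RUP1 and RUP2 had r 0.603 overall and 0.153 within groups, and SPA3 and SPA4 had r 0.533 and 0.799. These values share libraries and the warm contrast and are descriptions. By the same measure, DET1 was most like the cytokinin synthesis gene IPT9 (0.959) and the starch synthase gene SS2 (0.950). RUP2 was most like RAP74 (0.912) and ZAP1 (0.869), and COP1 most like OVA2 (0.861) and UVH3 (0.834). SPA2 was most like UPL1 (0.901) and CUL4 (0.884), the cullin of the ligase that COP1 and SPA proteins form with DDB1. SPA3 was most like AGT (0.934) and GLYR1 (0.920), and SPA4 most like PIP5K2 (0.834) and HAB2 (0.829).

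Genes that work with the 8 repressors were followed as lists, chosen with earlier results of these data known. Their counts stand against 26.0% of all genes called at 29 °C relative to 22 °C in the libraries labelled rve5-2 (13.0% higher and 13.0% lower) and 15.5% in WT (8.08% higher and 7.41% lower). Of 6 ligase partners, 1 fell in the libraries labelled rve5-2 (DDB1A, an adaptor of the CUL4 ligase, at 52.7 ± 4.62 CPM at 29 °C, against 64.7 ± 1.34 CPM at 22 °C, log2 fold change -0.30, edgeR adjusted p = 0.011) and 0 were called in WT. The call of DDB1A ended without replicate 2 of the libraries labelled rve5-2 at 29 °C (adjusted p = 0.0529). Of 10 subunits of the COP9 signalosome, which removes NEDD8 from cullins, 3 rose in the libraries labelled rve5-2, among them CSN6A by 0.27 (edgeR adjusted p = 0.037) and CSN7 by 0.22 (adjusted p = 0.04), and 0 were called in WT. The calls of CSN6A ended without any 1 of the 6 libraries labelled rve5-2, at adjusted p of 0.0588 to 0.106. Those of CSN7 ended without replicate 1 or 2 of these libraries at either temperature or replicate 1 of WT at 22 °C, at adjusted p of 0.0548 to 0.133. The 3 of 10 subunits stand against 13.0% of all genes called higher, and a difference of the list from that share was not tested. None of the 16 genes of these lists was called between genotypes.

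Of 8 photoreceptor genes, 2 rose in the libraries labelled rve5-2 and 1 in WT, where 13.0% and 8.08% of all genes rose. A difference of the list from those shares was not tested. PHYC rose by 0.29 (edgeR adjusted p = 0.00729) and CRY1 by 0.30 (adjusted p = 0.0246) in the libraries labelled rve5-2, and PHYE by 0.32 (adjusted p = 0.0332) in WT. The call of CRY1 ended without any 1 of the 3 libraries labelled rve5-2 at 22 °C or replicate 1 at 29 °C (adjusted p of 0.0575 to 0.11). That of PHYE ended without any 1 WT library but replicate 3 at 29 °C (0.0652 to 0.11). UVR8, the receptor on which the RUP proteins act, had log2 fold changes of -0.02 in the libraries labelled rve5-2 and 0.21 in WT (edgeR adjusted p = 0.913 and 0.0851; named after its values were seen). Of 6 further regulators of receptors and of COP1, BIC1, an inhibitor of cryptochromes, fell by 0.73 in the libraries labelled rve5-2 (edgeR adjusted p = 0.005) and by 0.93 in WT (adjusted p = 0.00261). FAR1, a transposase-derived factor of phytochrome A signalling, rose by 0.40 in WT (adjusted p = 0.0159). No gene of these lists was called between genotypes.

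Of 14 genes whose proteins are substrates of COP1 and SPA complexes, 4 rose and 3 fell in the libraries labelled rve5-2, and 4 rose and 2 fell in WT. Among all genes, 13.0% rose and 13.0% fell in the libraries labelled rve5-2, and 8.08% rose and 7.41% fell in WT. BBX24, a B-box factor, rose by 1.11 in the libraries labelled rve5-2 (edgeR adjusted p = 1.09e-05) and by 1.08 in WT (adjusted p = 1.6e-05). BBX25, its close relative, rose by 1.52 in the libraries labelled rve5-2 (adjusted p = 8.98e-05) and by 1.04 in WT (adjusted p = 0.00191). GI, a clock-associated factor, averaged 83.4 ± 1.94 CPM in WT at 29 °C, against 30.8 ± 4.79 CPM in WT at 22 °C (SD, n = 3 each, log2 fold change 1.44, adjusted p = 1.55e-05). GI also rose in the libraries labelled rve5-2 (0.77, edgeR adjusted p = 0.000475). The genes called lower, named after their values were seen, were BBX20, BBX21 and BBX22. BBX20 was at -1.42 in the libraries labelled rve5-2 and -1.09 in WT, and BBX21 at -0.77 and -0.60. BBX22 was called in the libraries labelled rve5-2 (-0.41) and not in WT (0.08). Between genotypes 2 of the 14 rose at each temperature in the libraries labelled rve5-2. These were BBX24 (0.63) and BBX25 (1.22) at 29 °C and GI (1.16) and BBX24 (0.61) at 22 °C. Among all genes, 0.466% were called between genotypes at 29 °C and 0.192% at 22 °C. A difference of the list from the shares of all genes was not tested. The BBX24 call at 22 °C ended without replicate 3 of WT at 22 °C (edgeR adjusted p = 0.0539) and replicate 1 of the libraries labelled rve5-2 at 22 °C (0.0513). HY5, named after its values were seen, averaged 16.9 ± 0.456 CPM in the libraries labelled rve5-2 at 29 °C, against 22.5 ± 0.953 CPM in those at 22 °C, and 20.6 ± 6.70 CPM in WT at 29 °C, against 29.9 ± 5.70 CPM in WT at 22 °C (SD, n = 3 each). The test did not call HY5 in either genotype (edgeR adjusted p = 0.149 and 0.0829), and its ranges overlapped between temperatures in WT. Over both genotypes, the contrast added after the data had been seen, HY5 fell by 0.47 (SE 0.14, edgeR adjusted p = 0.0182). In that contrast 19.5% of all genes were called lower.

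Genes induced by UV-B or through HY5 had medians further below 0 than those of the other 6 lists of this pathway. Of 14 such genes, 7 fell and 0 rose in each genotype, with a median log2 fold change of -1.08 in the libraries labelled rve5-2 and -1.27 in WT, where the median of all genes lay within 0.01 of 0. Chalcone isomerase CHI, an early enzyme of flavonoid synthesis, averaged 23.5 ± 2.04 CPM in the libraries labelled rve5-2 at 29 °C, against 62.8 ± 6.95 CPM in those at 22 °C, and 33.9 ± 9.18 CPM in WT at 29 °C, against 92.3 ± 0.327 CPM in WT at 22 °C (SD, n = 3 each). CHI fell by 1.42 (edgeR adjusted p = 0.000156) in the libraries labelled rve5-2 and by 1.45 (adjusted p = 0.000313) in WT. The flavonol synthase gene FLS1 fell by 1.80 in the libraries labelled rve5-2 (adjusted p = 0.000911), and UGT84A1, a sinapate glucosyltransferase gene, fell by 2.17 in WT (adjusted p = 0.00145). FLS1 was also called in WT (-1.57, edgeR adjusted p = 0.0035) and UGT84A1 in the libraries labelled rve5-2 (-1.87, adjusted p = 0.00174). With the root score as a covariate, FLS1 in the libraries labelled rve5-2 was at -0.75 (edgeR adjusted p = 0.123) and UGT84A1 in WT at -1.54 (adjusted p = 0.201). CHI stayed called under that covariate in both genotypes. None of the 14 was called between genotypes.

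Of 9 PIF and warm growth genes, 3 rose in the libraries labelled rve5-2 and 5 in WT, and 0 fell. PIF5 rose by 1.31 (edgeR adjusted p = 0.000432) and the shade-type factor ATHB2 by 1.25 (adjusted p = 0.000475) in the libraries labelled rve5-2. In WT PIF4, a growth-promoting factor of the warm response, rose by 1.15 (adjusted p = 0.00051) and PIF5 by 1.35 (adjusted p = 0.000843). With warmth PIF4 also rose in the libraries labelled rve5-2 (0.97, edgeR adjusted p = 0.000575) and ATHB2 in WT (0.99, adjusted p = 0.0034). PIF4 was also higher in the libraries labelled rve5-2 than in WT, by 0.79 at 29 °C (edgeR adjusted p = 0.0228) and by 0.98 at 22 °C (adjusted p = 0.0098). The call at 29 °C ended without any 1 of the libraries at 29 °C but replicate 1 of WT (adjusted p of 0.0605 to 0.135), and that at 22 °C without replicate 2 or 3 of WT or replicate 1 of the libraries labelled rve5-2 at 22 °C (0.0593 to 0.0643).

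With the root score as a covariate, several calls ended, at folds above or below those without it. In the libraries labelled rve5-2 this was so for CSN6A (0.37, against 0.27 without the score), CSN7 (0.24, against 0.22), PHYC (0.34, against 0.29), ATHB2 (1.1, against 1.25) and DDB1A (-0.23, against -0.30), at edgeR adjusted p of 0.0515 to 0.337. In WT it was so for PIF4 (0.93, against 1.15), PIF5 (1.25, against 1.35) and FAR1 (0.32, against 0.40), at edgeR adjusted p of 0.101 to 0.461. Other calls ended too. These were CRY1 (0.09, against 0.30) and BIC1 (-0.49, against -0.73) in the libraries labelled rve5-2, and PHYE (0.15, against 0.32) and BIC1 (-0.67, against -0.93) in WT, at edgeR adjusted p of 0.298 to 0.763. The calls of BBX24 and BBX25 in the libraries labelled rve5-2 and of GI and BBX24 in WT did not end.

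**Figure D4:**
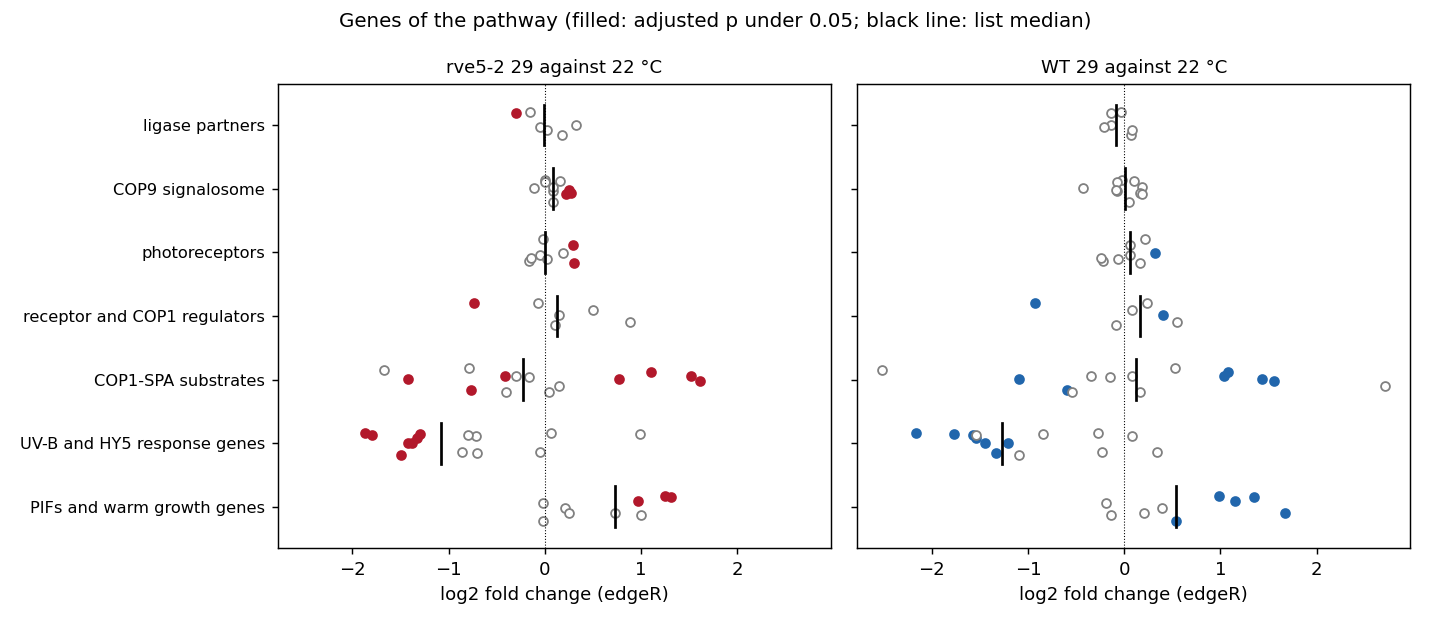
Log2 fold change at 29 °C against 22 °C of the genes in 7 lists of the pathway, in the libraries labelled rve5-2 (left) and WT (right), 1 point per gene, filled where the adjusted p in edgeR is under 0.05, with a black line at the list median. The UV-B and HY5 response genes have medians of -1.08 and -1.27, and the ligase, signalosome and photoreceptor lists lie near 0.

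Among the marker lists, 11 of 18 root markers fell in the libraries labelled rve5-2 and 10 in WT, with medians of -2.86 and -2.49. The root hair genes LRX1 and EXPA7 fell by 4.02 and fell by 3.27 in the libraries labelled rve5-2 (edgeR adjusted p = 8.72e-05 and 0.000573). In WT LRX1 fell by 2.79 and RHS19 fell by 2.81 (adjusted p = 0.00108 and 0.0024). Of 7 green shoot markers 5 rose and 0 fell in the libraries labelled rve5-2, and 4 rose and 1 fell in WT. The chloroplast development factor GLK2 rose by 1.21 and LHCA1 by 1.40 in the libraries labelled rve5-2, and GLK2 rose by 0.89 and LHCB3 by 0.98 in WT. With the root score as a covariate these calls in WT ended, at 0.65 for GLK2 and 0.82 for LHCB3 (edgeR adjusted p = 0.155 and 0.234). So did those of EXPA7 in the libraries labelled rve5-2 and of LRX1 and RHS19 in WT, which are themselves part of the score. Relative to WT, 4 green shoot markers rose at 29 °C in the libraries labelled rve5-2, and at 22 °C 3 did, while 0 root markers were called at either temperature. Among all genes, 0.466% were called between genotypes at 29 °C and 0.192% at 22 °C.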

How the data were processed

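RNA was sequenced from whole seedlings in 12 libraries, 3 per group. Per the labels' protocols, Trizol was used to extract RNA and an Illumina TruSeq kit to build the libraries. Per the submitters' processing notes, cutadapt 1.9, HISAT2 2.0.4, StringTie 1.3.4d and edgeR were used with the TAIR10 build. Which of these made each column is not given in the sources used here. The deposited table gives, per the file headers, a count and an FPKM for each gene and library. The authors' FPKM values hold a fixed small value wherever the count is 0. The deposited counts are whole numbers that pile up at a spacing of about 3.72 and were analysed as raw counts.

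Counts were fitted in R 4.3.3 with edgeR 4.0.16 (filterByExpr with a minimum count of 10, TMM scaling, quasi-likelihood, 1 mean per group, all 12 libraries), with Benjamini-Hochberg adjustment over the 21870 genes tested. Standard errors were approximated from the F statistics. Alternatives were median-of-ratios scaling, no filter, DESeq2 1.42.0, counts divided by the spacing, limma 3.58.1 on log2(FPKM + 1) and log2(FPKM + 0.1), a replicate block, the contrast's libraries alone, the root score as a covariate and each library left out. A fold change with a pseudocount understates the change of low genes. The edgeR fit alone was also run on simulated counts, and the outcome is not given here. Those counts held neither the spacing nor the root marker difference between temperatures. CPM are scaled by TMM, and ± gives the SD over 3 libraries.

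The 8 genes, RVE5, up to 2 called genes of each list and comparison with the smallest adjusted p, and the 2 genes most like each of the 8 (with a symbol in the table and a mean CPM of at least 5) are named, and any further gene is marked where it appears. The members and lists were chosen with earlier results of these data known.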

Additional observations from a re-analysis of the deposited data

How the results depend on the processing

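Median-of-ratios scaling changed no call of the 8 genes. Of 1152 values of the 8 genes under the alternatives, 1038 kept their direction and side of the threshold, 27 lost a call, 23 gained one and 64 without a call turned sign. RUP1 had the fewest fragments of the 8 genes, and its spread between libraries (coefficient of variation up to 70.6% within a group) also limits it. The causes of the following changes were not tested.

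The 2 calls of the 8 genes in WT were 0 with only the contrast's libraries and 0 with the root score. The 1 call in the libraries labelled rve5-2 was 0 without the filter and with the root score, and 2 in DESeq2, in limma on log2(FPKM + 1) and with only the contrast's libraries. The 3 over both genotypes were 0 with the root score, and the 0 between genotypes over both temperatures was 1 in DESeq2. Over all genes, the 3387 calls in WT were 1687 with only the contrast's libraries and 85 with the root score, and the 5696 in the libraries labelled rve5-2 were 540 with the root score. Between genotypes, the 102 calls at 29 °C were 345 in DESeq2, 38 with only the contrast's libraries and 210 with the root score. The 42 at 22 °C were 143 in DESeq2 and 75 with only the contrast's libraries. The interaction had 43 calls in DESeq2. The 8445 over both genotypes were 405 with the root score, and the 150 over both temperatures were 432 in DESeq2 and 258 with the root score. RVE5 over both genotypes turned to -0.032 with the root score (adjusted p = 0.928).

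In limma on log2(FPKM + 1), 1949 genes rose and 3923 fell in the libraries labelled rve5-2, and 1469 rose and 2110 fell in WT, against 2848 and 2848, and 1767 and 1620, in edgeR on counts. With a pseudocount of 0.1 they were 1921 and 3817, and 1415 and 1881, and the median of all genes in the libraries labelled rve5-2 was then -0.10.

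With each library left out, calls of the 8 genes ranged from 0 to 3 in WT, 0 to 3 in the libraries labelled rve5-2, 0 to 0 between genotypes at each temperature and for the interaction, 2 to 4 over both genotypes and 0 to 1 over both temperatures. Over all genes they ranged from 1747 to 3621 in WT, 3590 to 6958 in the libraries labelled rve5-2, 52 to 558 between genotypes at 29 °C, 25 to 82 at 22 °C, 0 to 1 for the interaction, 7175 to 8383 over both genotypes and 96 to 571 over both temperatures.

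Replicate numbers are shared between groups in the labels. Deviations from the group means correlated between same-numbered libraries at over 0.1 in 2 of 18 pairs (-0.02 to 0.17), so not every pair passed, and nothing in the labels ties same-numbered libraries together. They are therefore treated as sharing only a number, although 10 of 12 libraries correlated best with their own number, a hint of shared structure from the data and not from the design. With a replicate block, calls of the 8 genes in the libraries labelled rve5-2 were 2, RUP1 being added (adjusted p = 0.046), RUP1 was also called in WT (adjusted p = 0.0327), and calls over all genes were 5954 in the libraries labelled rve5-2 and 3829 in WT.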
